A study of Homo sapiens with 29 samples.

Results

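The genes described here are the AP-1 subunits FOS, FOSB, FOSL1, FOSL2, JUN, JUNB and JUND, the zinc finger factor EGR1, and the immediate early response genes IER2 and IER3. They were taken by name, and all 10 were found among the 23710 gene symbols of the deposited expression table. Polyadenylated RNA was sequenced in 27 libraries, 9 groups of 3, from the established human lung cancer lines H460 and H2122, whose mutant KEAP1 leaves the oxidative stress factor NRF2 active. The study also holds 1 NR0B1 chromatin immunoprecipitation library and 1 input, which are not analysed here. In H2122, cells with a hairpin (sh) against NRF2 were set against cells with a hairpin against GFP, both taken after 24 h. In H460, cells with hairpins against NRF2, NR0B1 (an orphan nuclear receptor that acts as a corepressor) or SNW1 (a coregulator of transcription and splicing) were set against cells with the GFP hairpin, all after 72 h. Every knockdown group and its shGFP control carry a hairpin. H460 cells treated for 12 h with 30 µM of the compounds BPK29 or BPK9, known here by code name only, were set against cells given DMSO. All 27 libraries come from these 2 lines, and how the 3 libraries of a group were made is not given, so p-values measure only the spread between libraries, which may be technical.

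AP-1 is a dimer that holds a Jun protein, for example with a Fos or ATF protein. Jun and Fos dimers bind DNA at the TGANTCA motif (N is any base). Growth factor and stress signals passing through MAP kinases switch on FOS, JUN, EGR1 and the IER genes within minutes, without new protein synthesis, partly through serum response factor bound at CArG boxes. FOSL1 and FOSL2 are made later and are more stable, and FOSL1 is a known AP-1 subunit of RAS-mutant lung cancer cells. These libraries were taken hours to days after the perturbation, so they hold lasting levels and not the first transient.

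The targeted transcripts checked the labels: NFE2L2 (NRF2) averaged 26.6 FPKM in shNRF2 and 58.5 FPKM in shGFP H2122 cells, and 26.8 FPKM in shNRF2 and 43.3 FPKM in shGFP H460 cells. NR0B1 averaged 18.2 FPKM in shNR0B1, but only 9.06 FPKM in shNRF2 H460 cells, against 47.6 FPKM in shGFP cells, and SNW1 averaged 32.2 FPKM in shSNW1 and 51.2 FPKM in shGFP cells. FPKM is the authors' value per kilobase of gene, scaled for depth, and whole reads recovered from it summed to between 16709893 and 24613434 in the knockdown libraries and between 19077604 and 24824626 in the compound libraries. Keratins KRT8, KRT18 and KRT19 were high in both lines. EPCAM and CDH1, which also define epithelium, were at 332 to 333 and 73.2 to 78.8 FPKM in H2122 shGFP cells but at 0.847 to 0.945 and 0 to 0.0201 FPKM in H460 shGFP cells. The immune markers PTPRC and CD3E stayed at or below 0.0256 FPKM in every knockdown group. Some marker sums moved with the knockdowns: the immune sum, all but entirely LYZ, was 4.84 to 5.41 FPKM in shNRF2 and 0.308 to 0.418 FPKM in shGFP H2122 cells. The sum of the 5 epithelial markers was 3880 to 4010 FPKM in shNRF2 and 2570 to 2580 FPKM in shGFP H2122 cells, and 1200 to 1220 FPKM in shNR0B1 and 1880 to 1940 FPKM in shSNW1 cells, against 1970 to 2250 FPKM in shGFP H460 cells. The sum of 5 stromal and endothelial markers was 10.2 to 11.5 FPKM in shNRF2 and 3.49 to 3.93 FPKM in shNR0B1 cells, against 1.14 to 1.45 FPKM in shGFP H460 cells. DCN made up most of it in shNRF2 cells, at 9.75 to 11.1 FPKM, and COL1A1 in shNR0B1 cells, at 2.39 to 2.87 FPKM. KRT19, KRT18 and KRT8 were lower under BPK29 than under DMSO by 0.36, 0.22 and 0.22 on the log2 scale (limma adjusted p = 1.11e-06, 3.85e-05 and 1.46e-05). Their part in the results below was not tested. In bulk RNA, fewer cells of a kind and less RNA per cell cannot be told apart.

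In the control cells of both lines IER2, FOSL1 and FOSL2 were at 11.8 FPKM or more on average, and FOS, FOSB and EGR1 were low. In H460 shGFP cells the mean levels ran from IER2 at 32.3 FPKM over JUND at 27.3, FOSL1 at 25.0 and FOSL2 at 11.8 FPKM to FOS at 3.72, JUN at 2.67 and FOSB at 0.266 FPKM. JUND and FOSL1 overlapped between libraries, and the other neighbours in this order did not. In H2122 shGFP cells the order was FOSL2 at 45.8, FOSL1 at 44.7, IER2 at 32.2, JUN at 21.1, JUND at 12.7, FOS at 0.819 and FOSB at 0.537 FPKM. There FOSL2 and FOSL1 overlapped between libraries, and the others did not. IER3, JUNB and EGR1 are left out of this order because the gene length behind their values differed most between the columns. It was 7.51 kb in the knockdown and 1.07 kb in the compound columns for IER3, 1.83 and 5.61 kb for JUNB, and 3.16 and 0.951 kb for EGR1. Among the genes kept, it was 2.06 and 2.69 kb for IER2, 1.89 and 2.58 kb for JUND, and 4.03 and 3.13 kb for FOSL2. Both orders therefore rest on the knockdown lengths, and the overlap between libraries says nothing about length. As deposited, JUNB averaged 35.4 FPKM in H460 and 51.0 FPKM in H2122 shGFP cells, and EGR1 averaged 1.72 FPKM in both. Ratios of a gene between libraries are not touched by its length.

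**Figure D1:**
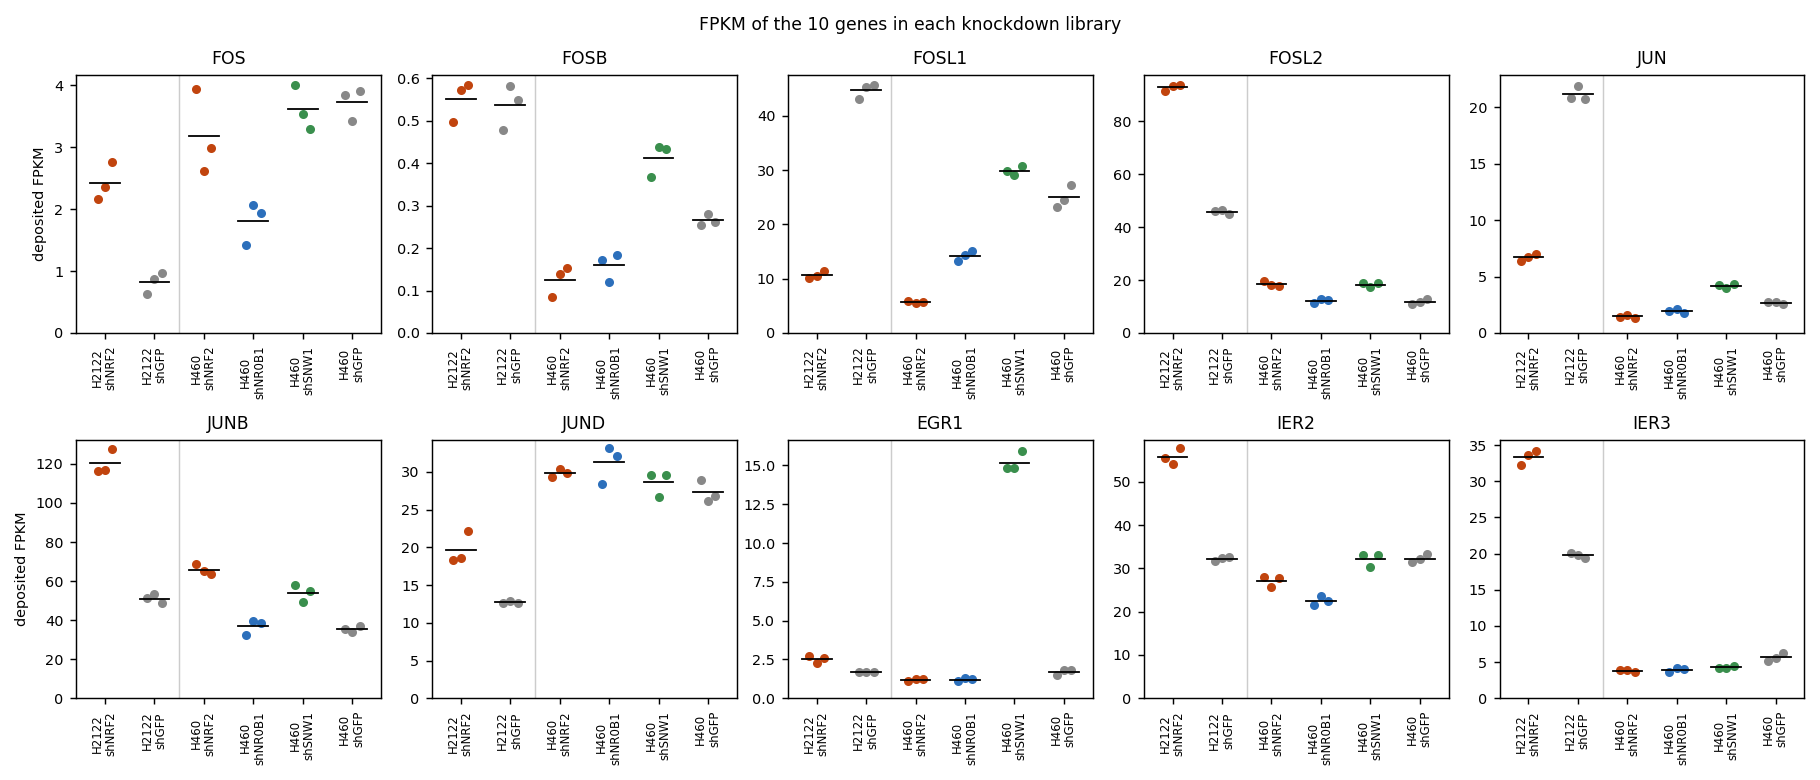
Deposited level of each of the 10 genes (FPKM, linear axis from 0, scaled per gene) in every knockdown library. Each point is 1 library and each bar the mean of a group, with the knockdown groups left of shGFP in each line. EGR1 in the 3 H460 shSNW1 libraries sits between 14.8 and 15.9 FPKM, far above its other libraries, and FOSL1 in the shNRF2 libraries sits below shGFP in both lines.

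Changes were tested with limma on log2(FPKM + 1), a scale that understates the change of low genes, over all genes that reached 1 FPKM in at least 3 libraries of the fit. The threshold for a call was 0.05 after Benjamini-Hochberg adjustment over those genes. FOSB never reached that level and was not tested, so 9 of the 10 genes were. After NRF2 knockdown in H2122, 7 rose (EGR1, FOS, FOSL2, IER2, IER3, JUNB and JUND) and 2 fell (FOSL1 and JUN), where 87.3% of all 11710 tested genes were called, 48.8% higher and 38.5% lower. FOS passed the minimum only through the shNRF2 libraries, so its call there follows from the filter. After NRF2 knockdown in H460, 2 rose (FOSL2 and JUNB) and 5 fell (EGR1, FOSL1, IER2, IER3 and JUN), against 79.8% of 11938 genes called, 40.9% higher and 39.0% lower. After NR0B1 knockdown 1 rose (JUND) and 6 fell (EGR1, FOS, FOSL1, IER2, IER3 and JUN), against 69.8% called, 33.1% higher and 36.8% lower. After SNW1 knockdown 5 rose (EGR1, FOSL1, FOSL2, JUN and JUNB) and 1 fell (IER3), against 67.2% called, 30.8% higher and 36.4% lower. The 3 H460 comparisons share the shGFP libraries. Since most genes were called everywhere, being called sets none of these genes apart, and the sizes are what the values below describe. Called changes of over 2 fold on the log2(FPKM + 1) scale numbered 4 of 9 in H2122, where 18.1% of all genes had one. In H460 they numbered 1 of 9 after NRF2 knockdown (11.7%), 0 after NR0B1 knockdown (2.86%) and 1 after SNW1 knockdown (2.39%). In mean FPKM itself, FOS stood at 2.96 times its control in H2122 and at 0.485 times after NR0B1 knockdown, outside these counts.

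**Figure D2:**
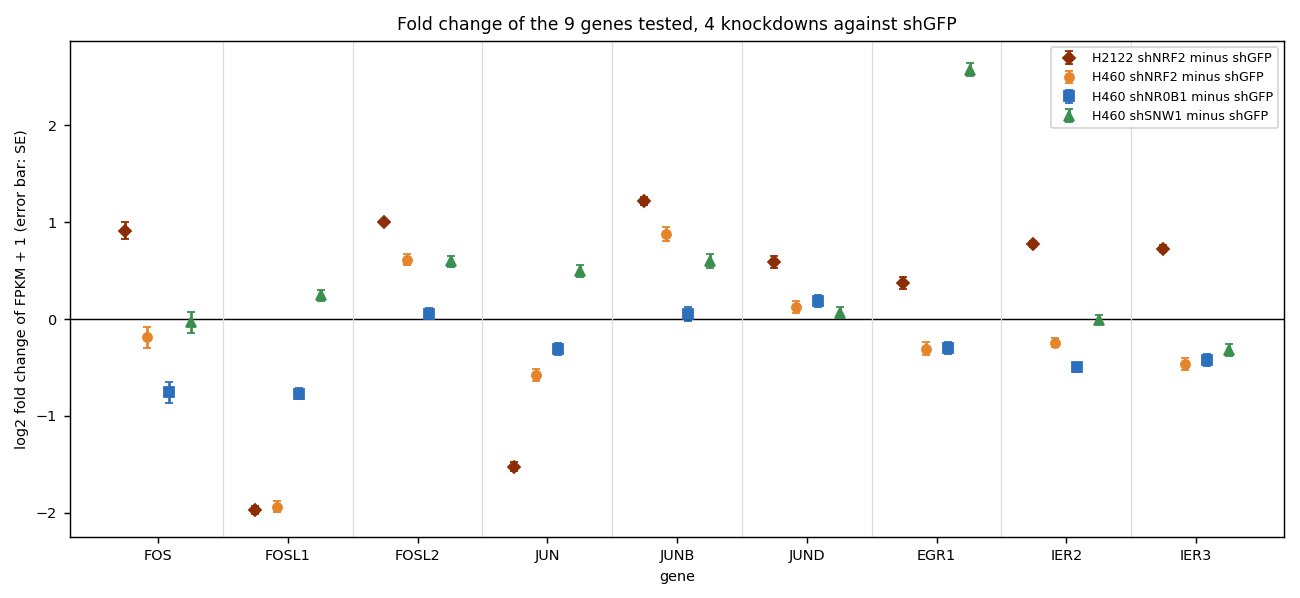
Fold change of each tested gene on the log2(FPKM + 1) scale in the 4 knockdowns against shGFP, with limma standard errors as bars (n = 3 against 3 libraries). EGR1 after SNW1 knockdown stands at 2.58, and FOSL1 after both NRF2 knockdowns at -1.97 and -1.94.

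Among the Fos proteins, FOSL1 (Fra-1) fell after NRF2 knockdown in both lines. FOSL1 had 10.1, 10.5 and 11.3 FPKM in H2122 shNRF2 cells, against 43.1, 45.4 and 45.6 FPKM in shGFP cells. Its H460 levels were 5.97, 5.60 and 5.76 FPKM in shNRF2, 13.3, 14.4 and 15.0 FPKM in shNR0B1 and 29.8, 29.1 and 30.7 FPKM in shSNW1 cells, against 23.3, 24.6 and 27.3 FPKM in shGFP cells. No library of a knockdown overlapped its control: both shNRF2 groups were lowest in their line, shNR0B1 was between, and shSNW1 was above. The log2 fold change was -1.97 ± 0.0427 in H2122 (SE, limma adjusted p = 1.81e-10) and -1.94 ± 0.0571 in H460 (limma adjusted p = 1.85e-12). It was -0.77 ± 0.0571 after NR0B1 knockdown (limma adjusted p = 5.23e-08) and 0.25 ± 0.0571 after SNW1 knockdown (limma adjusted p = 0.00171).

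FOSL2 (Fra-2), the closest relative of FOSL1, moved the other way after NRF2 knockdown. FOSL2 had 91.5, 93.3 and 93.6 FPKM in H2122 shNRF2 cells, against 46.0, 46.5 and 44.8 FPKM in shGFP cells. Among H460 cells there were 19.5, 18.2 and 17.8 FPKM in shNRF2, 11.5, 12.8 and 12.5 FPKM in shNR0B1 and 18.8, 17.2 and 18.8 FPKM in shSNW1 cells, against 10.9, 11.7 and 12.7 FPKM in shGFP cells. The shNRF2 and shSNW1 libraries were all above the controls, and the shNR0B1 libraries overlapped them. The log2 fold change was 1.00 ± 0.0238 in H2122 (limma adjusted p = 3.09e-10), 0.61 ± 0.0583 after NRF2 knockdown in H460 (limma adjusted p = 2.86e-07) and 0.60 ± 0.0583 after SNW1 knockdown (limma adjusted p = 8.80e-07). After NR0B1 knockdown it was 0.05 (95% interval -0.07 to 0.18, limma adjusted p = 0.415).

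FOS (c-Fos), the prototype early gene, was scarce. In H2122 it had 2.17, 2.36 and 2.75 FPKM in shNRF2 cells, against 0.629, 0.867 and 0.962 FPKM in shGFP cells. In H460 it had 3.94, 2.61 and 2.98 FPKM in shNRF2, 1.42, 2.06 and 1.94 FPKM in shNR0B1 and 4.002, 3.54 and 3.30 FPKM in shSNW1 cells, against 3.84, 3.42 and 3.91 FPKM in shGFP cells. Only the shNR0B1 libraries lay apart from the H460 controls, below them. FOS was higher by 0.91 ± 0.0891 on the log2 scale in H2122. It passed the minimum there only through the shNRF2 libraries, so that call follows from the filter and its p-value is left out. After NR0B1 knockdown in H460 FOS changed by -0.76 ± 0.111 (limma adjusted p = 3.84e-05). It was at -0.19 after NRF2 knockdown in H460 (limma adjusted p = 0.133), but at -0.32 and called without shNRF2 replicate 1 (limma adjusted p = 0.0116), and at -0.04 after SNW1 knockdown (limma adjusted p = 0.791).

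FOSB, the remaining Fos protein, lay at or under 0.584 FPKM in every knockdown library. It had 0.498, 0.573 and 0.584 FPKM in H2122 shNRF2 cells, against 0.479, 0.582 and 0.550 FPKM in shGFP cells. The H460 libraries held 0.0839, 0.140 and 0.153 FPKM in shNRF2, 0.173, 0.120 and 0.184 FPKM in shNR0B1 and 0.368, 0.438 and 0.434 FPKM in shSNW1 cells, against 0.254, 0.281 and 0.262 FPKM in shGFP cells. The H2122 groups overlapped, and each H460 knockdown was apart from its control. Those levels stand on 5 to 49 reads a library, and only a fit without the minimum gave FOSB a test: 0.16 after SNW1 knockdown (limma adjusted p = 0.00143), -0.13 after NR0B1 knockdown (limma adjusted p = 0.00533) and -0.17 after NRF2 knockdown in H460 (limma adjusted p = 0.000593).

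As shares of the summed FPKM of the 4 Fos genes, FOSL1 was lower and FOSL2 higher after NRF2 knockdown in both lines. On the deposited values this turned their order in H460, while in H2122 they were level in the control. FOSL1 made up 10.0 ± 0.407% in shNRF2 and 48.7 ± 0.907% in shGFP H2122 cells (SD, n = 3 each), and FOSL2 made up 87.2 ± 0.677% and 49.9 ± 1.12% in those same groups. In H460, FOSL1 made up 21.0% of the sum in shNRF2, 50.1% in shNR0B1 and 57.2% in shSNW1 cells, against 61.4% in shGFP cells. The sum itself was 106 ± 2.00 FPKM in shNRF2 and 91.8 ± 1.57 FPKM in shGFP H2122 cells. In H460 it was 27.6 ± 1.67 FPKM in shNRF2, 28.5 ± 1.87 in shNR0B1 and 52.2 ± 1.65 in shSNW1 cells, against 40.8 ± 3.01 FPKM in shGFP cells. So the Fos total after NRF2 knockdown was higher than its control in H2122 and lower in H460, with no overlap of the ranges mean ± SD, while the FOSL1 share was lower in both lines. These shares restate the FPKM values and carry no test of their own. They also rest on the lengths behind the knockdown values, 1.682 kb for FOSL1 and 4.026 kb for FOSL2. In the compound columns those lengths were 1.815 and 3.126 kb, with which FOSL2 would weigh more and FOSL1 less.

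**Figure D3:**
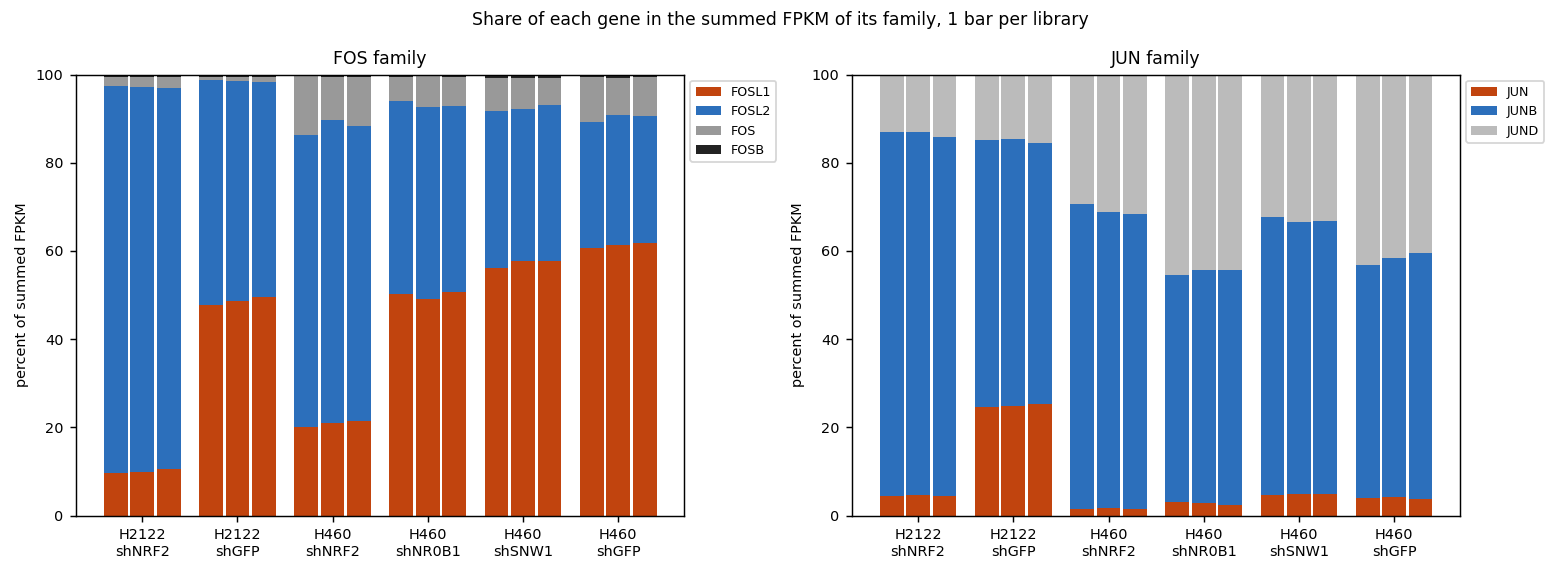
Share of each Fos gene (left) and Jun gene (right) in the summed FPKM of its family, with 1 bar per knockdown library (percent). Over the 3 libraries FOSL1 averages 10.0% in H2122 shNRF2 and 48.7% in H2122 shGFP cells, and JUN averages 4.57% and 24.9% in the same groups.

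Among the Jun proteins, JUN (c-Jun), the main partner of Fos proteins, fell after NRF2 knockdown in both lines. JUN had 6.36, 6.73 and 7.03 FPKM in H2122 shNRF2 cells, against 20.8, 21.9 and 20.8 FPKM in shGFP cells. In H460 it had 1.41, 1.63 and 1.36 FPKM in shNRF2, 1.92, 2.16 and 1.79 FPKM in shNR0B1 and 4.26, 3.96 and 4.34 FPKM in shSNW1 cells, against 2.73, 2.72 and 2.56 FPKM in shGFP cells. No group overlapped its control, with shSNW1 above and the others below. The log2 fold change was -1.52 ± 0.0423 in H2122 (limma adjusted p = 8.03e-10), and in H460 -0.57 ± 0.0622 after NRF2 knockdown (limma adjusted p = 1.13e-06), -0.31 after NR0B1 knockdown and 0.50 after SNW1 knockdown (limma adjusted p = 0.000521 and 9.34e-06).

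JUNB, a Jun protein that activates weakly and can oppose JUN, rose in both NRF2 knockdowns. JUNB had 117, 117 and 128 FPKM in H2122 shNRF2 cells, against 51.3, 53.2 and 48.7 FPKM in shGFP cells. Values in H460 were 68.9, 65.2 and 63.6 FPKM in shNRF2, 32.3, 39.7 and 38.8 FPKM in shNR0B1 and 58.0, 49.4 and 55.0 FPKM in shSNW1 cells, against 35.4, 33.9 and 37.0 FPKM in shGFP cells. The shNRF2 and shSNW1 libraries were all above the controls, and the shNR0B1 libraries lay on both sides of them. The log2 fold change was 1.22 ± 0.0422 in H2122 (limma adjusted p = 3.27e-09), 0.88 ± 0.0729 after NRF2 knockdown in H460 (limma adjusted p = 6.95e-08), 0.59 ± 0.0729 after SNW1 knockdown (limma adjusted p = 7.78e-06) and 0.05 (95% interval -0.11 to 0.21, limma adjusted p = 0.540) after NR0B1 knockdown.

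JUND, a Jun protein usually made at steady levels, moved little in H460. It had 18.4, 18.6 and 22.2 FPKM in H2122 shNRF2 cells, against 12.6, 12.9 and 12.7 FPKM in shGFP cells. In H460 it had 29.3, 30.4 and 29.9 FPKM in shNRF2, 28.4, 33.2 and 32.2 FPKM in shNR0B1 and 29.5, 26.7 and 29.6 FPKM in shSNW1 cells, against 28.9, 26.2 and 26.9 FPKM in shGFP cells. The H2122 knockdown and the H460 shNRF2 libraries were above their controls, and the other groups overlapped them. JUND rose by 0.59 ± 0.0630 on the log2 scale in H2122 (limma adjusted p = 1.25e-05). In H460 its change after NR0B1 knockdown, 0.19 ± 0.0582 (limma adjusted p = 0.0114), came with overlapping groups and was no longer called without shNR0B1 replicate 2 (0.14, limma adjusted p = 0.0596). It was at 0.12 after NRF2 knockdown and 0.06 after SNW1 knockdown in H460, neither called (limma adjusted p = 0.0643 and 0.345). As shares of the summed FPKM of the 3 Jun genes, JUN made up 4.57 ± 0.132% in shNRF2 and 24.9 ± 0.352% in shGFP H2122 cells (SD, n = 3 each), and 1.51 ± 0.143% in shNRF2 and 4.08 ± 0.238% in shGFP H460 cells. JUNB made up 82.0% in shNRF2 and 60.1% in shGFP H2122 cells, and 67.8% in shNRF2 and 54.2% in shGFP H460 cells. All these Jun shares rest on the JUNB length of 1.83 kb behind the knockdown values, and with the 5.61 kb of the compound columns JUNB would weigh less.

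The start of EGR1 and those of JUN and JUND carried motifs of the pathway, and their windows are printed to show them. RefSeq promoter sequences (GRCh38.p14, the bases just before the start) matched 8 of the 10 genes. FOSL1 and IER3 had no entry. The motifs searched, on both strands, were the AP-1 site TGANTCA, the CRE-like site TGACNTCA bound by Jun and ATF dimers, the EGR site GCGNGGGCG, the CArG box, and the antioxidant response element TGACNNNGC, the motif of NRF2, which can overlap an AP-1 site. EGR1 (chr5:138465229-138465478, plus strand) held 2 CArG boxes, CCATATTAGG at 105 to 96 and CCATATATGG at 83 to 74 bases before the start, and the EGR site GCGCGGGCG at 198 to 190 bases before it. JUN (chr1:58784048-58784297, minus strand) held the CRE-like site TGACATCA at 67 to 60 bases before its start. JUND (chr19:18281623-18281872, minus strand) held the CRE-like site TGACGTCA at 200 to 193 bases before its start and 2 matches to the antioxidant response element, TGACCCGGC at 230 to 222 and GCGACGTCA, read on the other strand, at 90 to 82 bases before it. Capitals mark these matches:
EGR1: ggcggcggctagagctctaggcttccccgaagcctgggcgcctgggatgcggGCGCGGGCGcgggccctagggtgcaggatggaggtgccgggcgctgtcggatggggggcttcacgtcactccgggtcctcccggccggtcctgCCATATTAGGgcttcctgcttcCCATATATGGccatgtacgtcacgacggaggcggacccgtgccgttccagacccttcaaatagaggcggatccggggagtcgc
JUN: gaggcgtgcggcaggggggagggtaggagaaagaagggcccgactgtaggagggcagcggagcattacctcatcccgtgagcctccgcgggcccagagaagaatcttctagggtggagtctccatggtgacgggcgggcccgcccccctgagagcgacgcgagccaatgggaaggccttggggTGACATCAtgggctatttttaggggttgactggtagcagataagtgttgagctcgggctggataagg
JUND: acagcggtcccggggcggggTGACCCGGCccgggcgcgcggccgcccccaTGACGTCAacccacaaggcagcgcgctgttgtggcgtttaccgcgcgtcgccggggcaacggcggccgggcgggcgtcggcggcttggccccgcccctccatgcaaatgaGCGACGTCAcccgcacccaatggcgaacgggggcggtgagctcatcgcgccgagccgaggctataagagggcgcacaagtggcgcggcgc
The windows of FOS, FOSB, FOSL2, JUNB and IER2 held none of these letters. Of 35116 promoters of this length, 1.16% held a CArG box, 8.41% the EGR site, 6.87% the CRE-like site, 6.57% the AP-1 site and 10.9% the antioxidant response element. A match describes the letters and shows no binding, and a window without one draws nothing about the factor.

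EGR1, the gene with the 2 CArG boxes above, showed the largest change of any of these genes. EGR1 had 14.8, 14.8 and 15.9 FPKM in shSNW1, 1.09, 1.30 and 1.23 FPKM in shNR0B1 and 1.09, 1.26 and 1.24 FPKM in shNRF2 H460 cells, against 1.47, 1.85 and 1.84 FPKM in shGFP cells. The shSNW1 libraries stood far above all others, while the shNR0B1 and shNRF2 libraries were slightly below the controls. The mean FPKM after SNW1 knockdown was 8.83 times that of shGFP. On the log2(FPKM + 1) scale, which understates it, the change was 2.58 ± 0.0658 (limma adjusted p = 4.73e-12). On that scale this change was the second largest in size among the 11938 genes tested. Over 15 alternative settings it ran between 2.51 and 3.16. It rested on 936, 956 and 883 reads in the shSNW1 libraries and on 111, 120 and 99 reads in the shGFP libraries. After NR0B1 and NRF2 knockdown in H460 the changes were small, -0.30 and -0.31 (limma adjusted p = 0.00116 and 0.000691). In H2122 it had 2.73, 2.28 and 2.57 FPKM in shNRF2 cells, against 1.72, 1.71 and 1.72 FPKM in shGFP cells, a rise of 0.37 ± 0.0615 (limma adjusted p = 0.000271). The EGR1 corepressor NAB2, itself a target of EGR1, averaged 9.98 FPKM in shSNW1 and 5.90 FPKM in shGFP cells (0.67, limma adjusted p = 2.43e-08), and NAB1 averaged 9.002 FPKM in shSNW1 and 13.9 FPKM in shGFP cells (-0.58, limma adjusted p = 9.67e-09). In shNR0B1 cells, where EGR1 was lower, NAB2 averaged 7.93 FPKM, also above shGFP, and NAB1 averaged 7.12 FPKM. After NRF2 knockdown in H460, 1 of the 2 was called higher and 1 lower. Whether NAB2 follows EGR1 was not tested. EGR2, EGR3 and EGR4 did not reach the minimum level.

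IER2, a nuclear early response protein, had 55.4, 54.1 and 57.9 FPKM in H2122 shNRF2 cells, against 31.6, 32.3 and 32.7 FPKM in shGFP cells. For H460 the levels were 27.9, 25.6 and 27.7 FPKM in shNRF2, 21.7, 23.6 and 22.5 FPKM in shNR0B1 and 33.1, 30.3 and 33.1 FPKM in shSNW1 cells, against 31.4, 32.3 and 33.2 FPKM in shGFP cells. The H2122 knockdown was above its control, the shNRF2 and shNR0B1 groups of H460 were below theirs, and shSNW1 overlapped it. The log2 fold changes were 0.77 in H2122, -0.25 after NRF2 knockdown in H460 and -0.50 after NR0B1 knockdown (limma adjusted p = 7.48e-09, 0.000294 and 6.31e-07). After SNW1 knockdown IER2 was at -0.01 (95% interval -0.11 to 0.10, limma adjusted p = 0.919).

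IER3, an early response protein that affects cell death and ERK signalling, had 32.3, 33.7 and 34.2 FPKM in H2122 shNRF2 cells, against 20.1, 19.8 and 19.4 FPKM in shGFP cells. In H460 it had 3.86, 3.94 and 3.62 FPKM in shNRF2, 3.60, 4.25 and 3.99 FPKM in shNR0B1 and 4.23, 4.23 and 4.47 FPKM in shSNW1 cells, against 5.11, 5.61 and 6.21 FPKM in shGFP cells. It was thus above the control in H2122 and below it in all 3 H460 knockdowns, with no overlap. The log2 fold changes were 0.73 in H2122 and -0.46, -0.42 and -0.32 after NRF2, NR0B1 and SNW1 knockdown in H460 (limma adjusted p = 1.40e-08, 1.56e-05, 5.78e-05 and 0.000673).

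The NRF2 effect was then compared between the lines by an interaction term over 12 libraries (H2122 change minus H460 change). The difference was called for 8 of the 9 genes, 7 with the higher change in H2122 and 1 with the lower, where 71.6% of 12798 genes were called, 37.4% higher and 34.3% lower. IER3 differed by 1.19 ± 0.0762, FOS by 1.10 ± 0.152 and IER2 by 1.02 ± 0.0552 on the log2 scale (limma adjusted p = 1.79e-08, 2.54e-05 and 3.75e-09). EGR1, IER2 and IER3 were called in each line with opposite signs, higher in H2122 and lower in H460. JUN differed by -0.95 ± 0.0721 (limma adjusted p = 9.66e-08), having fallen further in H2122. The log2(FPKM + 1) scale understates changes at low levels, and JUN averaged 21.1 FPKM in H2122 but 2.67 FPKM in H460 shGFP cells. The sizes of such differences therefore depend on the scale. Over the alternative settings JUN ran from -0.980 to -0.788 and FOS from 1.005 to 1.825. FOSL2, JUNB and JUND differed by 0.39, 0.34 and 0.46 (limma adjusted p = 0.000159, 0.000466 and 0.000286). For FOSL1 the difference was -0.03, with a 95% interval of -0.20 to 0.14 (limma adjusted p = 0.733), which bounds how far the 2 falls can differ. The lines were also sampled at different times, 24 h in H2122 and 72 h in H460, so line and time cannot be told apart.

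**Figure D4:**
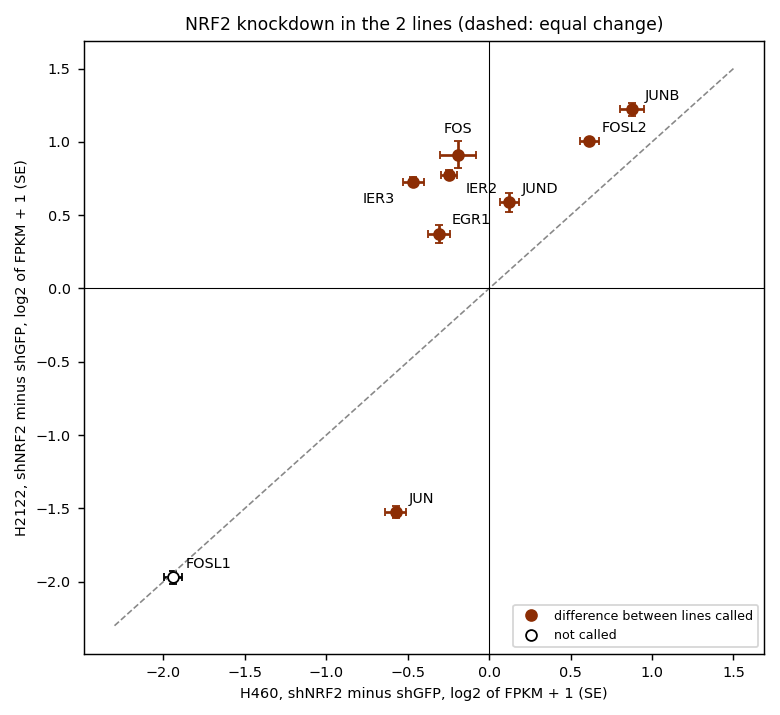
Fold change after NRF2 knockdown in H2122 (vertical, 24 h) against that in H460 (horizontal, 72 h) on the log2(FPKM + 1) scale, with standard errors as bars and a dashed line of equal change. Open symbols mark a difference between lines that was not called. FOSL1 lies on the line at -1.97 and -1.94, JUN lies below it, and EGR1, IER2 and IER3 lie at positive values for H2122 and negative values for H460.

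The H460 knockdowns were also set against each other. NR0B1 was lower in shNRF2 than in shNR0B1 cells, so these groups do not separate loss of the 2 factors. After NRF2 knockdown, set against NR0B1 knockdown, 4 genes were higher (FOS, FOSL2, IER2 and JUNB) and 2 lower (FOSL1 and JUN), where 74.5% of all genes were called, 37.8% higher and 36.7% lower. FOSL1 was lower by 1.17 on the log2 scale and JUNB higher by 0.83 (limma adjusted p = 3.39e-10 and 1.77e-07). EGR1 was at -0.01 in that comparison, with a 95% interval of -0.15 to 0.13 (limma adjusted p = 0.903). After NRF2 knockdown, set against SNW1 knockdown, 1 was higher (JUNB) and 4 lower (EGR1, FOSL1, IER2 and JUN), where 78.7% were called, 39.6% higher and 39.1% lower. JUNB, at 0.28, was no longer called after rescaling to a common total (0.16, limma adjusted p = 0.0529), and IER3, at -0.14 (limma adjusted p = 0.0563), was called lower under 5 alternatives. After NR0B1 knockdown, set against SNW1 knockdown, none was higher and 7 were lower (EGR1, FOS, FOSL1, FOSL2, IER2, JUN and JUNB), where 67.8% were called, 34.7% higher and 33.1% lower. JUN fell there to 0.468 times and FOS to 0.500 times the shSNW1 level (limma adjusted p = 8.87e-08 and 6.50e-05). FOSL2 was at 0.02 between shNRF2 and shSNW1 cells, with a 95% interval of -0.11 to 0.14 (limma adjusted p = 0.793).

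BPK29 raised most of these genes in H460 by small amounts, and BPK9 at the same dose and time gave no call in the main fit. For BPK29 set against DMSO, 7 of 9 genes rose (EGR1, FOSL1, FOSL2, IER2, IER3, JUN and JUNB) and none fell, where 50.4% of 11461 genes were called, 21.1% higher and 29.3% lower. The split over all genes moves with the scaling, 2418 higher and 3359 lower as deposited, against 3645 higher and 2313 lower once libraries are scaled to an equal total, where 8 of the 9 rose. Compound values are given as ratios to the DMSO mean, since the gene lengths behind them differ from those of the knockdown columns. EGR1 stood at 1.93, 1.71 and 1.95 in BPK29 and at 1.16, 0.802 and 1.06 in BPK9, against 0.815, 1.27 and 0.912 in DMSO. JUNB stood at 1.94, 1.84 and 1.84 in BPK29 and at 1.13, 1.34 and 1.15 in BPK9, against 1.04, 0.978 and 0.983 in DMSO. JUN stood at 1.59, 1.52 and 1.67 in BPK29 and at 1.05, 1.27 and 1.04 in BPK9, against 1.03, 1.02 and 0.953 in DMSO. In all 3 genes the BPK29 libraries were apart from every BPK9 and DMSO library, above them. EGR1 had 89, 76 and 83 reads in the BPK29 libraries and 37, 58 and 32 reads in the DMSO libraries.

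The log2 fold changes in BPK29 against DMSO were 0.80 ± 0.0566 for JUNB, 0.66 ± 0.118 for EGR1 and 0.57 ± 0.0667 for JUN (limma adjusted p = 5.18e-06, 0.00124 and 8.92e-05). FOSL1 stood at 1.46, 1.47 and 1.53 in BPK29 and at 1.05, 0.997 and 1.03 in BPK9, against 1.03, 0.983 and 0.986 in DMSO, a change of 0.56 ± 0.0307 (limma adjusted p = 1.23e-06). FOSL1 was thus above DMSO in all BPK29 libraries, in contrast to its lower level after NR0B1 knockdown in separate H460 libraries at 72 h. IER2 and IER3 rose by 0.52 and 0.40 (limma adjusted p = 2.40e-06 and 9.72e-06). FOSL2 rose by 0.13 (limma adjusted p = 0.0148), a call that was lost without BPK29 replicate 1 (0.11, limma adjusted p = 0.0562), BPK29 replicate 3 (0.12, limma adjusted p = 0.0524) or DMSO replicate 3 (0.11, limma adjusted p = 0.0506). JUND was at 0.10 (95% interval -0.04 to 0.24, limma adjusted p = 0.197) and FOS at 0.01 (-0.17 to 0.20, limma adjusted p = 0.902). FOSB had 1 to 9 reads a library and is not compared.

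For BPK9 against DMSO, 0 of the 9 genes were called, where 1 gene of 11461 was (0.00873%). At an unadjusted limma p under 0.05 there were 1725 genes (15.1%), among them 4 of the 9. A limma-voom fit on recovered reads called 256 genes, and of these 9 it called JUNB (0.27, limma adjusted p = 0.00373) and JUND (0.21, limma adjusted p = 0.0167). Under the deposited scaling JUNB was at 0.23 (95% interval 0.11 to 0.36, limma adjusted p = 0.160) and EGR1 at 0.01 (-0.25 to 0.28, limma adjusted p = 0.974). The intervals of IER2, IER3 and JUND, at 0.11, 0.11 and 0.20, also lay above 0 (limma adjusted p = 0.208, 0.187 and 0.220). Those of FOS, FOSL1, FOSL2 and JUN held 0. JUND averaged 1.15 times the DMSO mean in BPK9 and 1.08 times in BPK29. BPK29 set against BPK9 at the same dose and time gave 7 higher and none lower, where 46.9% of genes were called, 19.7% higher and 27.2% lower. EGR1 was higher by 0.65, JUNB by 0.57, FOSL1 by 0.53 and JUN by 0.44 (limma adjusted p = 0.00162, 4.75e-05, 2.07e-06 and 0.000540). For FOS the difference between the compounds was 0.03 (95% interval -0.16 to 0.21) and for JUND -0.09 (-0.23 to 0.04), neither called (limma adjusted p = 0.820 and 0.232). The 2 comparisons against DMSO share the DMSO libraries.

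**Figure D5:**
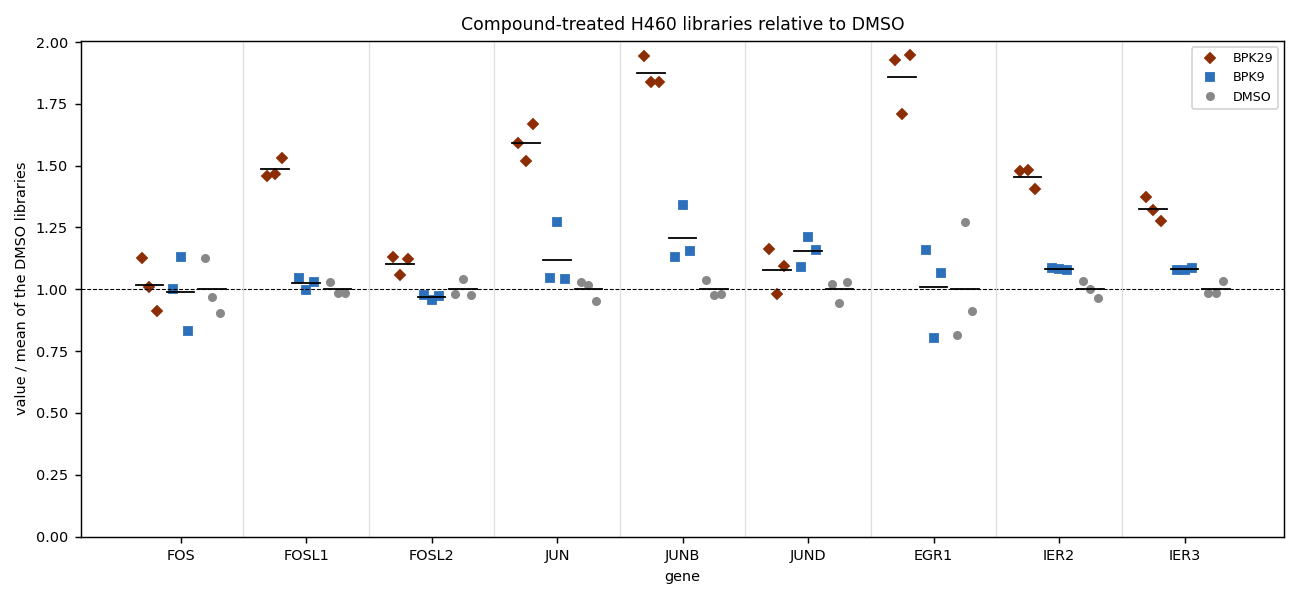
Level of the 9 tested genes in each compound-treated or DMSO library as a ratio to the mean of the DMSO libraries. Points are libraries and bars group means, with BPK29 and BPK9 left of DMSO. EGR1 and JUNB reach 1.71 to 1.95 and 1.84 to 1.94 in BPK29, above all BPK9 and DMSO libraries.

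Genes around this pathway were followed as lists, each set beside the median of all tested genes and the share of them called. Those shares were 48.8% higher and 38.5% lower after NRF2 knockdown in H2122, 40.9% and 39.0% after NRF2 knockdown in H460, 33.1% and 36.8% after NR0B1 knockdown, 30.8% and 36.4% after SNW1 knockdown, and 21.1% and 29.3% for BPK29 against DMSO. So many genes were called that a count of calls sets no list apart. Among 16 inputs (MAP kinases, the RSK and MSK kinases below them, and factors that bind CArG boxes and CRE sites), 10 rose and 5 fell after NRF2 knockdown in H2122, with a median of 0.21 against 0.09 for all genes. In H460, 4 rose and 9 fell after NRF2 knockdown (median -0.22, all genes 0.01), 8 rose and 4 fell after NR0B1 knockdown (0.12, all genes -0.02), and 6 rose and 7 fell after SNW1 knockdown (0.03, all genes -0.03). SRF, serum response factor itself, averaged 8.04 FPKM in shNRF2, 12.1 FPKM in shNR0B1 and 9.79 FPKM in shSNW1 cells, against 3.72 FPKM in shGFP cells (0.94, 1.47 and 1.19, limma adjusted p = 4.57e-09, 2.07e-10 and 1.71e-09). It also rose in H2122, to 11.1 FPKM in shNRF2 cells, against 6.05 FPKM in shGFP cells (limma adjusted p = 5.66e-07). SRF was thus higher in every knockdown, while EGR1 was higher in some and lower in others. Whether EGR1 follows SRF was not tested. For BPK29 against DMSO, 3 inputs rose and 1 fell, and 8 rose and none fell after rescaling to a common total.

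The MAP kinase feedback genes DUSP4, DUSP5, DUSP6, SPRY2, SPRY4 and PHLDA1, which ERK signalling induces and which in part limit it, had different counts in the lines and hairpins. In H2122, 5 rose and 1 fell after NRF2 knockdown, with a median of 1.23 against 0.09 for all genes. Between the lines, the interaction was called for 5 of the 6, all with the higher change in H2122 (median 1.00, all genes 0.02), where 71.6% of all genes were called and 37.4% were higher. DUSP6, an ERK phosphatase, averaged 147 FPKM in shNRF2 and 34.5 FPKM in shGFP H2122 cells (2.06, limma adjusted p = 1.47e-10), and PHLDA1 averaged 179 FPKM in shNRF2 and 42.4 FPKM in shGFP H2122 cells (2.05, limma adjusted p = 2.22e-11). In H460, 3 rose and 3 fell after NRF2 knockdown. DUSP6 averaged 192 FPKM in shNRF2 and 90.5 FPKM in shGFP cells, and DUSP4 averaged 158 and 74.6 FPKM, both higher as in H2122. Among those that fell was DUSP5, with 5.08 FPKM in shNRF2 and 18.3 FPKM in shGFP cells (-1.67, limma adjusted p = 1.32e-12). After NR0B1 knockdown none rose and 6 fell (median -0.38, all genes -0.02), 5 of them still called after rescaling to a common total. DUSP6 averaged 44.7 FPKM in shNR0B1 and 90.5 FPKM in shGFP cells (-1.002, limma adjusted p = 5.71e-11). After SNW1 knockdown 3 rose and 1 fell, led by PHLDA1 with 53.6 FPKM in shSNW1 and 21.8 FPKM in shGFP cells (1.26, limma adjusted p = 4.00e-11). For BPK29 against DMSO 4 rose and 2 fell, with DUSP6 lower by 0.60 and DUSP5 higher by 0.37 (limma adjusted p = 8.60e-07 and 2.75e-05).

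Of 21 other immediate early genes, 16 rose and 2 fell of 19 tested after NRF2 knockdown in H2122 (median 0.46, all genes 0.09), where 48.8% of all genes rose and 38.5% fell. MYC averaged 48.7 FPKM in shNRF2 and 173 FPKM in shGFP H2122 cells (-1.81), and the orphan receptor gene NR4A2 averaged 11.8 FPKM in shNRF2 and 3.21 FPKM in shGFP H2122 cells (1.60, limma adjusted p = 1.31e-10 for MYC and 1.20e-09 for NR4A2). All 21 were tested in H460: 11 rose and 8 fell after NRF2 knockdown (median 0.12, all genes 0.01), 7 rose and 10 fell after NR0B1 knockdown (-0.20, all genes -0.02), and 11 rose and 6 fell after SNW1 knockdown (0.14, all genes -0.03). NR4A1 averaged 31.8 FPKM in shNR0B1 and 106 FPKM in shSNW1 cells, against 70.7 FPKM in shGFP cells (-1.13 and 0.57, limma adjusted p = 2.47e-09 and 1.87e-06). For BPK29 against DMSO 11 rose and 4 fell, among them ZFP36, a protein that destabilises early mRNAs, at 0.65 (limma adjusted p = 7.32e-06).

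Of 16 known AP-1 target genes, 10 were tested in H2122, of which 7 rose and 3 fell (median 0.37, all genes 0.09), and 14 in H460. In H460, 4 rose and 6 fell after NRF2 knockdown (median -0.07, all genes 0.01), 2 rose and 11 fell after NR0B1 knockdown (-0.40, all genes -0.02), and 4 rose and 5 fell after SNW1 knockdown (-0.04, all genes -0.03, but 0.04 after rescaling to a common total). The largest changes after NRF2 knockdown in H460 were falls of PLAU, urokinase, with 15.6 FPKM in shNRF2 and 59.9 FPKM in shGFP cells (-1.87, limma adjusted p = 8.50e-14), and of the chemokine IL8, with 73.6 FPKM in shNRF2 and 273 FPKM in shGFP cells (-1.87, limma adjusted p = 1.25e-12). PLAU and IL8 were also below the H460 control after NR0B1 knockdown, at 12.1 and 94.4 FPKM. In H2122, by contrast, PLAU averaged 433 FPKM in shNRF2 and 146 FPKM in shGFP cells, and IL8 averaged 59.8 and 52.7 FPKM. MMP1, interstitial collagenase, averaged 116 FPKM in shNRF2 and 53.8 FPKM in shGFP H460 cells (1.10, limma adjusted p = 2.59e-12). HMGA1, a chromatin protein, averaged 76.2 FPKM in shNRF2 and 108 FPKM in shNR0B1 cells, against 171 FPKM in shGFP cells (-1.15 and -0.66, limma adjusted p = 5.15e-11 and 4.81e-08). For BPK29 against DMSO 6 of 14 rose and 3 fell. No gene of these 4 lists was called for BPK9 against DMSO, although 1 feedback gene was after rescaling to a common total. Of 7 tested Jun and Fos partners and related factors, 5 rose and 2 fell after NRF2 knockdown in H2122. In H460, 2 rose and 3 fell after NRF2 knockdown, none rose and 3 fell after NR0B1 knockdown, and 3 rose and 2 fell after SNW1 knockdown. MAFF, a small Maf protein, averaged 20.8 FPKM in shNRF2 and 4.25 FPKM in shGFP H2122 cells (2.05, limma adjusted p = 3.77e-10), but 0.606 FPKM in shNRF2 and 2.30 FPKM in shGFP H460 cells (-1.04, limma adjusted p = 6.08e-09).

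Across the 12 H460 knockdown libraries, the genes whose log2(FPKM + 1) followed these most closely are named as a description. FOSL1 was matched by SDHB (Pearson r = 0.995), DUSP5 (0.994) and FKBP4 (0.993), and EGR1 by RIN1 (0.987), SFSWAP (0.984) and CCNK (0.981). JUN was matched by TRMT6 (0.984), JUNB by FBRS (0.983), FOSL2 by GIT1 (0.987), FOS by CCDC28A (0.937), IER2 by BICD2 (0.972), IER3 by DEAF1 (0.973) and JUND by TRAPPC5 (0.865). Among the genes themselves, FOSL2 and JUNB had r = 0.960, JUN and FOSB 0.942, FOS and IER2 0.914 and JUN and FOSL1 0.897, whereas FOSL1 and FOSL2 had -0.288. The points share libraries, depth scaling and the 4 hairpin groups, so these values restate group differences and carry no test.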

How the data were processed

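Polyadenylated RNA was sequenced in 27 libraries, and the authors deposited 1 table of FPKM values for them. The tools STAR, DESeq2, featureCounts, HOMER and Bowtie2 and the build hg19 come from the submitters' processing notes. Their versions and roles, the annotation and the use of strand are not stated there, so reads of overlapping or antisense genes cannot be told apart. Low FPKM values are whole multiples of 1 read, and this gave whole reads for 100% of the 16934 knockdown and 15171 compound genes with values in at least 6 libraries (tolerance 0.02 reads). Per the deposited values, the knockdown columns follow median-ratio scaling and the compound columns follow it to within 1.03%, while they depart from total reads by up to 6.89% and 2.82%.

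All comparisons used limma 3.58.1 (R 4.3.3) with a mean-variance trend on log2(FPKM + 1). A gene was kept if 3 or more libraries of the fit reached 1 FPKM, p-values were Benjamini-Hochberg adjusted over all of them, and calls used 0.05. Separate fits held the 12 H460 knockdown, 6 H2122 and 9 compound libraries, and an interaction fit held 12 libraries of both lines. Errors are SE for fold changes and SD over 3 libraries for levels. The fits and the read recovery were tested on simulated data. The genes and lists were chosen with earlier results of these data known. Named list genes are up to 4 per list and comparison with the largest called change and a mean of at least 5 FPKM, of which some are printed and some are not reported here. Alternatives were another pseudocount, other filters and scalings, limma without the trend, limma-voom on recovered reads, a replicate block, and each library left out. The labels do not say that replicate numbers pair the libraries, so the main fits held no replicate block. The NR0B1 peak list was not used here.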

Additional observations from a re-analysis of the deposited data

Results flagged for a closer look

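The response to NRF2 knockdown differed between the lines for 8 genes, by the limma interaction term over 12 libraries (H2122 change minus H460 change, log2 scale). The difference was 0.682 for EGR1, 1.10 for FOS, 0.389 for FOSL2, 1.02 for IER2, 1.19 for IER3, -0.949 for JUN, 0.345 for JUNB and 0.463 for JUND, with limma adjusted p between 3.75e-09 and 0.000466. Over all 12798 genes 71.6% were called in this test. Line and knockdown time cannot be told apart, and the log2(FPKM + 1) scale understates the change of low genes. With 3 libraries a group, no library was examined as an outlier.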

How the results depend on the processing

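Of 1496 values of these genes under the alternatives, 1472 kept their side of the threshold, 19 crossed it upwards and 5 downwards. No value called in either setting changed sign. Values near 0 that were called in neither setting could change sign and still count among the 1472. EGR1 between shNRF2 and shNR0B1 cells, for example, ran from -0.07 to 0.03. FOS had no value in H2122 when an shNRF2 library was left out. Calls of BPK9 against DMSO numbered 2 without a filter, 13 with a 5 FPKM filter, 9 after rescaling to a common total, 2 under median-ratio scaling over the genes kept, 256 by limma-voom, 2 in a fit of those groups alone, and 1 to 2 with each library left out. SNW1 in BPK29 against DMSO reversed to 0.05703 after rescaling to a common total (limma adjusted p = 0.0283). The cause of these changes was not tested.

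Rescaling to a common total moved the share of higher calls from 41.9% to 61.2% for BPK29 against DMSO, from 45.8% to 56.5% for shSNW1, from 47.3% to 57.3% for shNR0B1, and to 39.1% and 41.2% for shNRF2 against shNR0B1 and shSNW1, where the median of all genes moved by -0.102 and -0.103. Replicate numbers do not pair the libraries by the labels. Same-numbered H2122 libraries correlated at 0.054, 0.126 and 0.0909 in their deviations, each best with its own number, as did those of BPK9 and DMSO (0.0531, 0.0421 and 0.0221). With the number as a replicate block, 10299 genes were called in H2122, against 10228 without it. The block changed no count of these genes against shGFP or DMSO, and added IER3 between shNRF2 and shSNW1 cells (-0.14, limma adjusted p = 0.0493). A search for NR0B1 peaks near these genes was not run. Reads limit FOSB, FOS and EGR1 most.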
